A study of Mus musculus with 12 samples.

Results

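The miR-143 and miR-145 cluster is a pair of microRNA hairpins known from smooth muscle and fibroblasts, and it was followed here through both mature arms of each hairpin, mmu-miR-143-3p, mmu-miR-143-5p, mmu-miR-145a-5p and mmu-miR-145a-3p (the mouse prefix is left out from here on). These 4 names were taken by name from the 1915 mouse microRNA names in the deposited count table, by a rule that uses no measured value. The samples are extracellular vesicles, small membrane-bound particles shed by cells, from the plasma of male mice of the inbred strain C57BL/6J. One group had bile duct ligation (BDL), in which the bile duct is tied so that bile stays in the liver, and the other a sham operation. All were sampled 8 days after surgery, with 6 libraries per group. The design text speaks of 6 animals in each group, but no label ties a library to an animal, and the sample codes put 2 libraries under each first digit, 3 digits per group. What the digit stands for is not stated. If libraries of 1 digit share an animal, n is 3 per group and the p-values below, which measure the spread between libraries, are too small. One label gives liver as the tissue. Another label, for the site, and the protocol describe vesicles precipitated from 250 µl of plasma with a polymer reagent, a step that does not select for the cell of origin. They give no transgene and no agent.

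Mature microRNAs are short RNAs that guide silencing proteins to messenger RNAs through the bases at positions 2 to 8, the seed. miR-143 and miR-145 are made from neighbouring hairpins, usually as a single precursor transcript, under control of serum response factor and myocardin. They are abundant in vascular and visceral smooth muscle, pericytes and fibroblasts, where they help to hold the contractile state and repress factors such as KLF4. miR-143-3p and miR-145a-5p are the arms usually kept as guide strands, and miR-143-5p and miR-145a-3p are the opposite arms of the same hairpins. In liver the cluster belongs to vessel wall, portal fibroblast and stellate cells rather than to hepatocytes.

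To set the cluster beside other microRNAs of contractile and matrix-forming cells, a list of such names was used. Its 6 other names that passed the test between BDL and sham are shown, since the results below compare the cluster with them. The sequences are from RefSeq on GRCm38.p6, 5′ to 3′, with the seed in capitals.
miR-199a-3p: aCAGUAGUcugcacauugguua
miR-214-3p: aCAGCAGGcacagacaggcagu
miR-218-5p: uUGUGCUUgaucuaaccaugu
miR-222-3p: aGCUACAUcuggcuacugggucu
miR-24-3p: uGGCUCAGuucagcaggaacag
miR-27b-3p: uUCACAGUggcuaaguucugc

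The 6 names have 6 different seeds. miR-214-3p lies on the plus strand at chr1:162223438-162223459, in an exon of Dnm3os, which also holds the copy of miR-199a-3p at chr1:162217883-162217904. The other copy of miR-199a-3p lies at chr9:21496498-21496519, in an intron of Dnm2 on the opposite strand. The copies of miR-218-5p lie in introns of Slit2 (chr5:48223966-48223986) and Slit3 (chr11:35616840-35616860). miR-222-3p (chrX:19146901-19146923, minus strand) overlaps no other gene, nor does the copy of miR-24-3p at chr8:84208875-84208896. miR-27b-3p (chr13:63300760-63300780) and the other copy of miR-24-3p (chr13:63301251-63301272) overlap an exon of 2010111I01Rik.

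The cluster itself was placed on GRCm38 with the GENCODE M21 annotation (the authors' own build may differ). Mir143 lies on chromosome 18 from 61649196 to 61649258 and Mir145a from 61647825 to 61647894, both on the minus strand. They are 1301 bases apart and overlap no other annotated gene. Carmn, a long non-coding RNA also listed as the miR-143 host gene, lies upstream on the same strand, with 366 bases between its 3′ end and Mir143.

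Libraries held from 121003 to 3506914 counts of mouse names, and the lowest total was that of BDL 4. Values are counts per 1000000 (CPM), scaled by trimmed-mean (TMM) factors. Where no read was counted, up to 3 counts are allowed for, or 23.98 CPM in BDL 4 and 0.624 CPM in BDL 1. Reads carry no molecular identifiers, so intervals and floors cover counting error only. The sample codes end in 24 or 26, a suffix of unstated meaning that parts each group into 3 and 3, and results are also given within each suffix. In BDL the suffix goes with depth, with 3506914, 2278626 and 1635616 counts in suffix 24 and 623117, 121003 and 666310 in suffix 26. Sham libraries had 2684636, 1380297 and 1957974 counts in suffix 24 and 2388515, 1407980 and 659302 in suffix 26. Values within suffix 26 therefore set shallow BDL libraries against mostly deeper sham libraries. Of 341 names tested, BDL had 84 (24.6%) above and 62 (18.2%) below sham by edgeR's quasi-likelihood test, at an adjusted p (Benjamini-Hochberg) under 0.05. Some markers of other cell types differed between the groups, while others did not pass the test. Of 5 tested hepatocyte names 3 were higher and 0 lower, and their list summed to 84143 to 345079 CPM in BDL and 17281 to 57383 in sham. Of 6 tested red cell names 0 were higher and 4 lower, with sums of 124882 to 378393 and 358824 to 556234 CPM. Of 4 tested striated muscle names 3 were lower (639.4 to 1743 CPM in BDL, 1153 to 2137 in sham), of 6 endothelium and platelet names 2 were lower (5302 to 9977 and 9084 to 16251), of 7 leukocyte names 3 (1100 to 4219 and 4047 to 7671) and of 5 epithelium names 3 (357.6 to 565.0 and 743.8 to 1025), each with 0 higher. Of the names of these lists, miR-122-3p was at 0 in every sham library. The part of these other cell types in the results below was not tested.

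The arms of the cluster did not move together. miR-143-3p, its most abundant product, fell in BDL to about 0.457 of the sham level, while miR-145a-5p rose 2.48-fold and miR-143-5p 2.85-fold. miR-145a-3p did not pass the test. All 4 members passed the filter on low counts, so 3 of 4 were past the threshold, against 42.8% of all names tested. In the higher direction these were 2 of 4 (24.6% of all names) and in the lower direction 1 of 4 (18.2%). With so few members these shares cannot be read against the background. The members past the threshold had opposite signs.

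**Figure D1:**
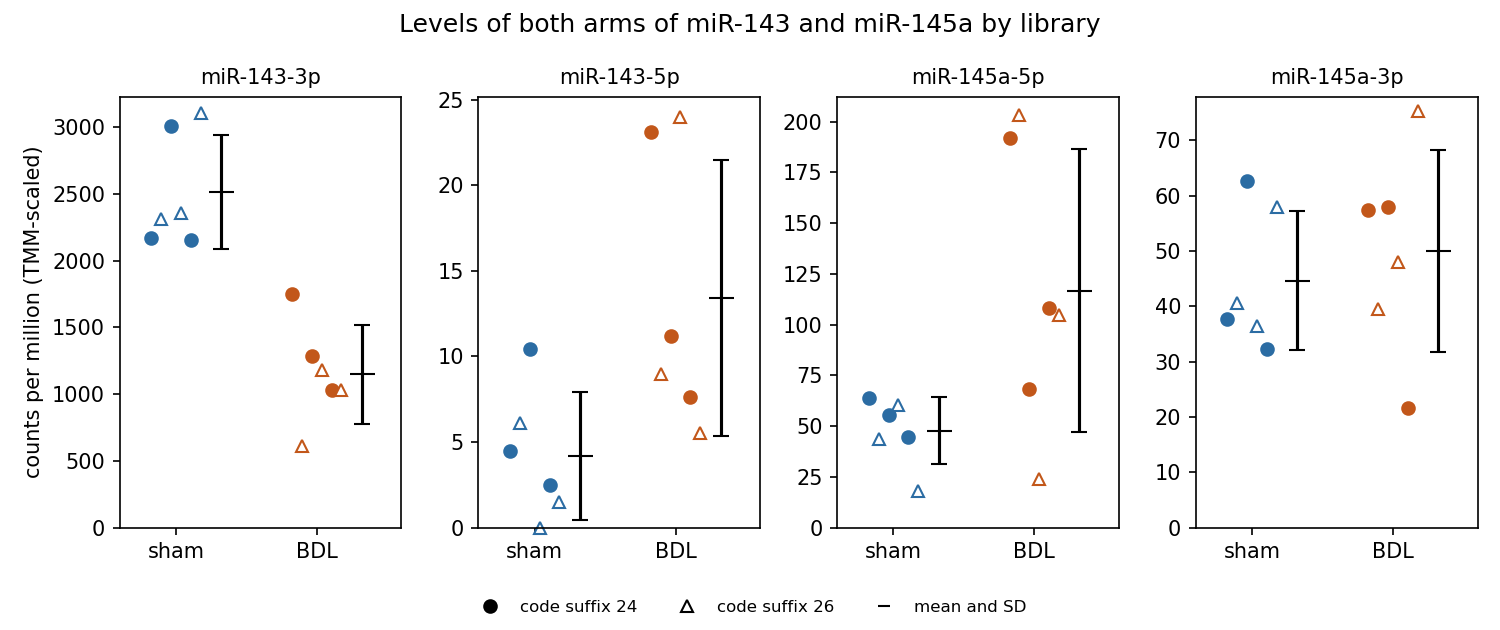
Level of each mature arm (vertical axis, TMM-scaled CPM, from 0, a scale of its own in each panel) in 6 sham (blue) and 6 BDL (orange) libraries, with filled circles for code suffix 24, open triangles for suffix 26 and the group mean and SD in black. Every BDL library lies below every sham library for miR-143-3p, while the groups overlap for the other arms.

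miR-143-3p, the guide arm of miR-143, had levels of 1748, 615, 1289, 1183, 1034 and 1030 CPM across BDL libraries 1 to 6. In sham libraries 1 to 6 it had 2168, 2309, 3005, 2353, 2155 and 3104 CPM. All 6 BDL libraries were below the lowest sham library, a separation that 9.38% of the names tested show in this direction and 21.1% in either, with 1 of 4 members separated. The means were 1150 ± 372 CPM for BDL and 2516 ± 425.5 for sham (SD, n = 6 each), and the log2 fold change was -1.13 ± 0.25 (SE; adjusted p = 0.00189). In rank among all mouse names by count, it stood between 27 and 32 in the sham libraries and between 35 and 59 in the BDL libraries.

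The fall of miR-143-3p was present under both suffixes. Its log2 fold change was -0.82 ± 0.27 in suffix 24 (adjusted p = 0.0394, where 31.3% of 403 names were past the threshold) and -1.47 ± 0.38 in suffix 26 (adjusted p = 0.00689, with 38.5% of 265 names), with 3 libraries per group in each edgeR fit. The difference between suffixes was -0.62 ± 0.45 (adjusted p = 0.47, in a test that 2.35% of names passed). It stayed past the threshold without each of the 12 libraries in turn (-1.38 to -1.08) and under every other setting tried (-1.47 to -0.82). With the counts of libraries that share a first digit summed, 3 sums against 3, edgeR gave -0.89 for miR-143-3p (adjusted p = 0.00962). In the same fit miR-143-5p had 1.58 (adjusted p = 0.0295), miR-145a-5p 1.27 (0.017) and miR-145a-3p 0.22 (0.58). Raw counts were summed, so in each BDL sum the deeper library, that of suffix 24, weighs most. As a plain share of counts, without TMM scaling, the groups overlapped: miR-143-3p took 0.239, 0.0549, 0.151, 0.122, 0.0992 and 0.0842% of BDL libraries 1 to 6, against 0.174 to 0.312% of sham libraries. Only the share in BDL 1 lay within the sham range. The totals hold both miR-486a-5p and miR-486b-5p, whose mean levels are identical, 278640 CPM in BDL and 392088 CPM in sham for each. Levels are relative to the rest of the library. Fewer vesicles from a source, less RNA per vesicle and an unchanged amount beside more RNA of other names cannot be told apart.

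miR-143-5p, the opposite arm of the same hairpin, was scarce, with 213 counts over the 12 libraries against 39533 of miR-143-3p. Its counts were 111, 5, 30, 3, 12 and 3 across BDL libraries 1 to 6, against 13, 15, 15, 0, 5 and 1 across sham libraries 1 to 6. On the CPM scale these were 23.1, 8.99, 11.2, 23.98, 7.65 and 5.51 in BDL. In sham they were 4.50, 6.10, 10.5, 0, 2.52 and 1.52, where the limit for sham 4, with no count, is 2.88 CPM. The groups overlapped, with 3 BDL libraries above every sham library, of which BDL 4 rests on 3 counts. The means were 13.4 ± 8.07 and 4.18 ± 3.75 CPM (SD, n = 6 each). This gave 1.51 ± 0.56 for the log2 fold change, with its SE (adjusted p = 0.0381). This call was narrow. It ended without BDL 1 (1.05, adjusted p = 0.173), BDL 2 (1.53, 0.0586), BDL 3 (1.496, 0.0674) or BDL 4 (1.37, 0.0706). It also ended without sham 1 (1.49, 0.0726), sham 2 (1.62, 0.0558), sham 4 (1.22, 0.0802), sham 5 (1.31, 0.108) or sham 6 (1.29, 0.0985). In suffix 24 the value was 1.38 ± 0.61 (adjusted p = 0.1), and in suffix 26 the arm was too low to be tested.

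miR-145a-5p, the guide arm of miR-145a, had 192, 203, 68.1, 23.98, 108 and 105 CPM across BDL libraries 1 to 6, while sham libraries 1 to 6 had 64.1, 43.9, 55.8, 60.5, 44.8 and 18.3 CPM. Except for BDL 4, where the level rests on 3 counts, every BDL library was above the highest sham library. The means were 117 ± 69.7 CPM for BDL and 47.9 ± 16.6 for sham (SD, n = 6 each). The log2 fold change was 1.31 ± 0.41 with its SE (adjusted p = 0.0167). Within suffix 24 it was 1.19 ± 0.38 (adjusted p = 0.0342) and within suffix 26 it was 1.41 ± 0.59 (adjusted p = 0.0712), and the difference between suffixes was 0.35 ± 0.76 (adjusted p = 0.839). The call ended without BDL 1 (1.08, adjusted p = 0.0554), BDL 2 (1.02, 0.0715), sham 3 (1.15, 0.0564), sham 5 (1.23, 0.0605) or sham 6 (1.06, 0.0556). Without BDL 4, the shallowest library, it was 1.44 (adjusted p = 0.00497).

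miR-145a-3p, the opposite arm, had 57.4, 39.5, 58.0, 48.0, 21.7 and 75.2 CPM across BDL libraries 1 to 6, while sham libraries 1 to 6 had 37.8, 40.7, 62.7, 36.5, 32.3 and 57.9 CPM. The ranges overlapped nearly in full, with BDL 5 the lowest and BDL 6 the highest of all 12. The means were 49.97 ± 18.3 and 44.6 ± 12.5 CPM (SD, n = 6 each). The log2 fold change was 0.17 ± 0.33 (SE; adjusted p = 0.706), with a 95% interval from -0.47 to 0.81 by the normal approximation, so a change of the size seen in miR-145a-5p lies outside it. It was 0.10 ± 0.42 in suffix 24 and 0.28 ± 0.47 in suffix 26. By the same approximation the interval of miR-145a-5p ran from 0.50 to 2.12, so the intervals of the arms overlap. The ratio of the arms, given below, did not pass its test.

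miR-145b, a name close to miR-145a with a hairpin elsewhere on chromosome 18 (69022199 to 69022273), had 0 to 15 counts per library and 78 in all, and was below the filter. How reads that match both miR-145b and miR-145a-5p were counted is not stated. If they went to both names, a sum of the names counts them more than once. With both names summed, the log2 fold change of miR-145a-5p was 1.22 (adjusted p = 0.0192).

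The order of levels was the same in both groups: miR-143-3p first, miR-145a-5p next, then miR-145a-3p, and miR-143-5p last. CPM of mature microRNAs is not divided by length, since 1 read spans the whole molecule, but names differ in how well they are captured in a library. The step from miR-143-3p to the next name was far larger than the spread in either group. miR-145a-5p and miR-145a-3p did not differ beyond their spread in sham, where the first was the higher in 4 of 6 libraries. In BDL it was the higher in 5 of 6.

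Ratios of members within a library do not depend on scaling, and they were compared by two-sided exact permutation tests over 924 partings of the libraries, adjusted over 19 ratios. With 6 against 6, the smallest p is 0.00216. If libraries of 1 first digit share an animal, 3 against 3 allows no exact p below 0.1, and none of the ratio or share tests could pass. The balance of the guide arms shifted from miR-143 towards miR-145a in BDL. The ratios were taken with 0.5 added to each count. Those of miR-143-3p to miR-145a-5p were 33.7, 52.3, 53.6, 38.6, 47.8 and 163 across sham libraries 1 to 6. In BDL libraries 1 to 6 they were 9.10, 3.02, 18.9, 42.4, 9.52 and 9.77. Except for BDL 4, with 3 reads of miR-145a-5p, each BDL value was below every sham value. The mean log2 ratio was 3.49 ± 1.27 for BDL and 5.79 ± 0.81 for sham (SD, n = 6 each), a difference of -2.29 (exact permutation p = 0.00649, adjusted p = 0.0154). It was -1.91 within suffix 24 and -2.68 within suffix 26, where 3 against 3 allows no p below 0.1. The adjusted p stayed under the threshold without each library in turn (-2.68 to -1.91).

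**Figure D2:**
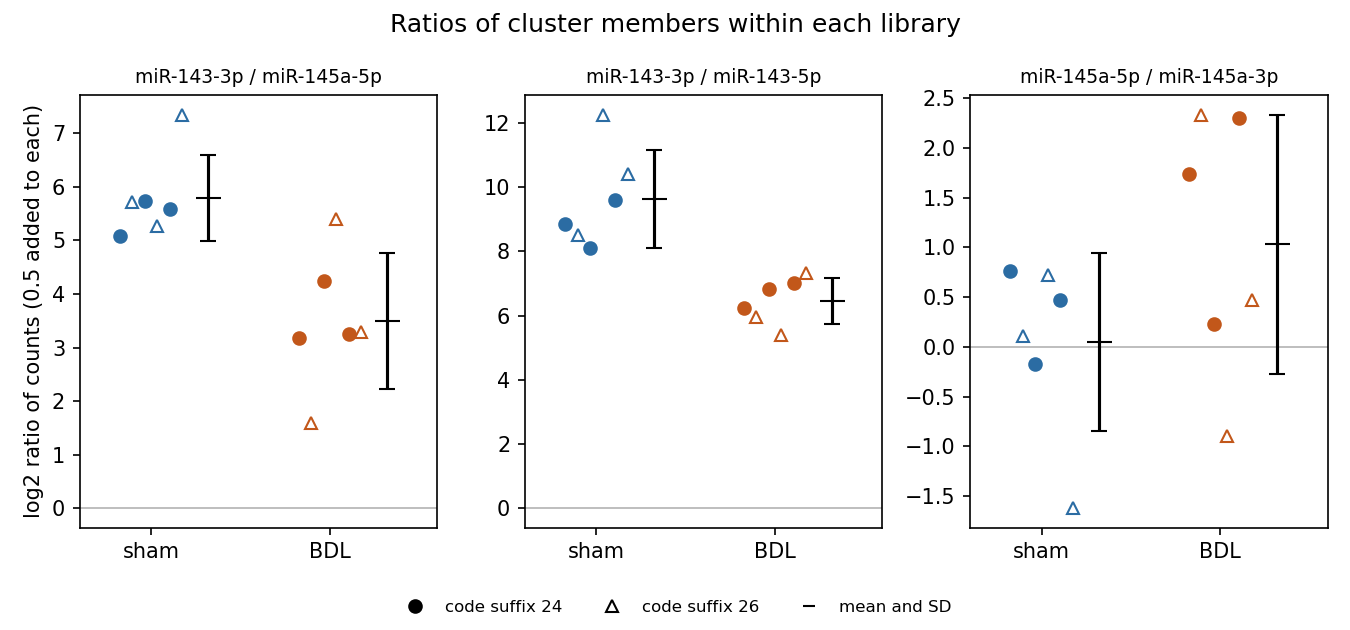
Log2 ratio of the counts of 2 members (vertical axis, 0.5 added to each count, a scale of its own in each panel) in each sham (blue) and BDL (orange) library, with filled circles for code suffix 24, open triangles for suffix 26 and the mean and SD in black. The ratio of miR-143-3p to miR-143-5p is lower in every BDL library than in every sham library, while the ratio of the miR-145a arms overlaps.

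The arms of the miR-143 hairpin also shifted against each other. miR-143-5p made up 1.30, 1.44, 0.863, 1.99, 0.734 and 0.532% of the reads of both arms in BDL libraries 1 to 6. In sham libraries 1 to 6 it made up 0.207, 0.263, 0.347, 0, 0.117 and 0.0491%. Every BDL library was above every sham library. The means were 1.14 ± 0.538% and 0.164 ± 0.132% (SD, n = 6 each). In the deepest BDL library the exact (Clopper-Pearson) 95% interval was 1.07 to 1.57%, and in BDL 4, with 3 of 151 reads, it was 0.412 to 5.70%. In sham 4, with 0 of 2452 reads, its upper bound was 0.150%. In sham 3, the highest sham library, the interval was 0.194 to 0.571%. It overlapped those of BDL 2 (0.469 to 3.33%), BDL 4, BDL 5 (0.380 to 1.28%) and BDL 6 (0.110 to 1.55%, from 3 of 564 reads). Those of BDL 1 and BDL 3 (0.583 to 1.23%) lay above it. The log2 ratio of miR-143-3p to miR-143-5p was 6.46 ± 0.72 in BDL and 9.63 ± 1.53 in sham, a difference of -3.17 (n = 6 each; exact permutation p = 0.00216, adjusted p = 0.00588). It was -2.17 within suffix 24 and -4.16 within suffix 26. The sham mean depends on the 0.5 added to the count of 0 in sham 4, and without that library the difference was -2.64 (adjusted p = 0.00685). With every library thinned to 121003 counts, most counts of miR-143-5p are lost and the difference was -1.25 (adjusted p = 0.104).

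For miR-145a the arms were nearer to balance. miR-145a-5p made up 77.0, 83.7, 54.0, 33.3, 83.3 and 58.2% of the hairpin's reads across BDL libraries 1 to 6. The sham libraries had 62.9, 51.9, 47.1, 62.4, 58.2 and 24%. BDL 1, 2 and 5 were above every sham library and the others were within the sham range. The value of BDL 4 rests on 9 reads (exact 95% interval 7.49 to 70.1%). The log2 ratio of miR-145a-5p to miR-145a-3p differed by 0.99 (exact permutation p = 0.147, adjusted p = 0.2; n = 6 each), which was within the spread between libraries.

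The members together took 0.144 ± 0.0718% of BDL counts against 0.257 ± 0.0551% of sham counts (SD, n = 6 each; exact permutation p = 0.0195, adjusted p = 0.0433 over 5 shares). Nearly all of this is miR-143-3p. With miR-122-5p, miR-486a-5p and miR-486b-5p left out of the totals, the difference was -0.551 percentage points (exact permutation, adjusted p = 0.00541). The difference of -0.113 percentage points was not past the threshold without BDL 2, BDL 3 or BDL 4 or without sham 1, sham 2, sham 3, sham 5 or sham 6, where it ran from -0.119 to -0.0990 (adjusted p = 0.0505 to 0.092).

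Set against 8 abundant or cell-type names in the same library, the guide arms gave different pictures. For miR-143-3p, 3 of 8 ratios passed the threshold. It was lower against miR-214-3p, a fibroblast and stellate cell microRNA (-2.85, adjusted p = 0.00588), and against miR-21a-5p, which is often raised in fibrotic tissue (-1.14, adjusted p = 0.0262). The second call ended without BDL 2 (-0.98, adjusted p = 0.0523) or sham 6 (-0.87, 0.0523). miR-143-3p was higher against the red cell microRNA miR-451a (1.598, adjusted p = 0.00588). miR-451a itself fell further than miR-143-3p, with log2 fold changes of -2.63 and -1.13 by edgeR. Against miR-199a-3p, a microRNA of fibroblasts and stellate cells, the ratio was 4.02 ± 0.54 for BDL and 3.86 ± 0.42 for sham (SD, n = 6 each), a difference of 0.16 (exact permutation adjusted p = 0.619). The ratios to the endothelial miR-126a-3p (0.76, adjusted p = 0.0981; 0.94 and 0.0411 without sham 3), the myeloid miR-223-3p (-0.15), the striated muscle miR-1a-3p (0.22) and the red cell miR-486a-5p (-0.60, adjusted p = 0.285; -0.95 and 0.0452 without BDL 1) were not past it. By suffix, the ratio to miR-126a-3p differed by -0.16 in suffix 24 and 1.68 in suffix 26, and that to miR-1a-3p by 1.28 and -0.83, so neither had 1 direction.

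For miR-145a-5p, 7 of 8 ratios were past the threshold and all 7 were higher in BDL. The differences were 3.89 against miR-451a, 3.06 against miR-126a-3p, 2.45 against miR-199a-3p and 2.14 against miR-223-3p, each with every BDL library above every sham library (adjusted p = 0.00588 for each). Within suffix 24 these differences were 3.24, 1.75, 2.15 and 1.41, and within suffix 26 they were 4.55, 4.36, 2.76 and 2.87. Against miR-1a-3p it was 2.52 (adjusted p = 0.0247; 2.13 and 0.0514 without BDL 1, 2.36 and 0.0523 without BDL 2) and against miR-486a-5p 1.69 (adjusted p = 0.0228). Against miR-21a-5p it was 1.15 (adjusted p = 0.0377), a call that ended without BDL 1, BDL 2, BDL 5 or BDL 6 or without sham 2, sham 5 or sham 6 (0.94 to 1.14, adjusted p = 0.0538 to 0.0685). Against miR-214-3p the difference was -0.56 (adjusted p = 0.409). These are exact permutation tests with n = 6 each. The 8 ratios share 1 numerator, so they are not separate results, and each also carries the change of the other name. By the edgeR test miR-451a (log2 fold change -2.63), miR-126a-3p (-1.79), miR-199a-3p (-1.23) and miR-1a-3p (-1.20) were themselves lower in BDL past the threshold. miR-223-3p (-0.58), miR-486a-5p (-0.49) and miR-21a-5p (0.00) were not past it, and miR-214-3p was higher (1.69).

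Other microRNAs of smooth muscle, fibroblasts and stellate cells were compared from the same list. Of 29 such names besides the members, 28 were in the table and 22 were tested, with 2 above and 4 below sham past the threshold and 16 short of it, against 24.6% and 18.2% of all names, so the list was not called more often than other names in either direction. Their median log2 fold change was -0.55, with 0.03 over all names tested, and the values ran from -1.62 to 1.69. The summed level of the names ran from 23010 to 68420 CPM in BDL and from 42812 to 60773 in sham, so the groups overlapped.

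Those that fell with miR-143-3p were miR-218-5p, carried in the Slit genes (-1.62 ± 0.31, adjusted p = 6.05e-04), miR-222-3p, a regulator of smooth muscle growth (-1.26 ± 0.31, adjusted p = 0.0033), and miR-199a-3p (-1.23 ± 0.30, adjusted p = 0.00343), whose counts are identical to those of miR-199b-3p, so that the reads cannot be assigned to 1 of the copies. miR-27b-3p had -0.73 ± 0.26 (adjusted p = 0.0341), a call that ended without BDL 2 (-0.72, adjusted p = 0.0757), BDL 3 (-0.82, 0.0568), BDL 6 (-0.64, 0.0928), sham 1 (-0.75, 0.0506) or sham 2 (-0.72, 0.0612). It was -0.37 in suffix 24 (adjusted p = 0.351), -0.56 scaled by total counts only (0.241), -0.75 with no count filter (0.207), -0.47 summed by first digit (0.16) and -0.65 without BDL 2 and BDL 4 (0.068). Those that rose, as miR-145a-5p did, were miR-214-3p, with mean levels of 141 ± 42.8 CPM after BDL and 43.6 ± 9.40 after sham surgery (SD, n = 6 each; 1.69 ± 0.29, adjusted p = 3.37e-04), and miR-24-3p, of a cluster expressed in vessel walls (1.06 ± 0.25, adjusted p = 0.0029). miR-99a-5p and miR-10a-5p, which with miR-24-3p have the highest mean over both groups of these names, had -0.55 ± 0.28 (adjusted p = 0.127) and 0.11 ± 0.27 (adjusted p = 0.779). The rise of miR-24-3p had 0.71 in suffix 26 (adjusted p = 0.103).

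**Figure D3:**
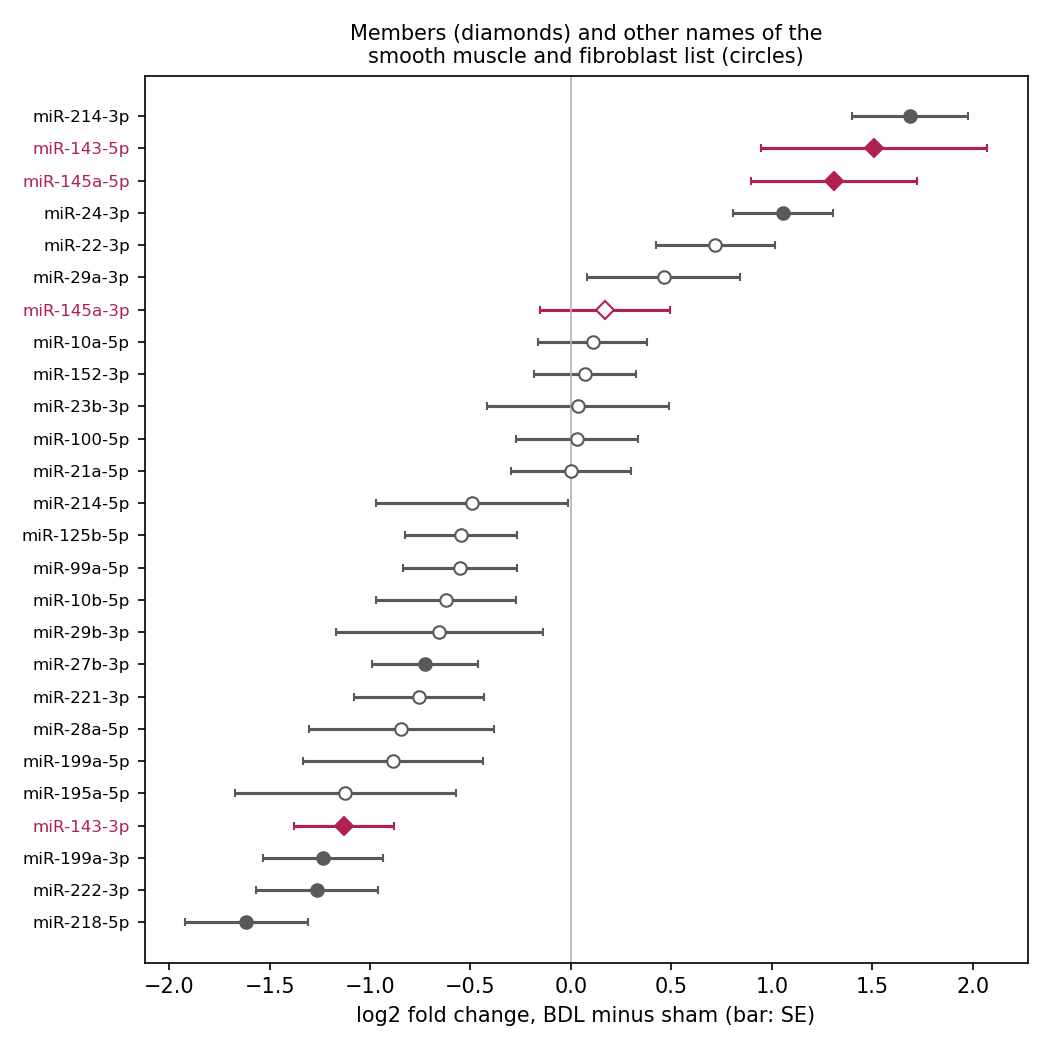
Log2 fold change (horizontal axis, BDL minus sham, with SE bars) of the 4 members (red diamonds) and of 22 other tested names of smooth muscle, fibroblasts and stellate cells (grey circles), filled where the adjusted p is under 0.05. miR-145a-5p and miR-143-5p lie near the highest value of the names drawn and miR-143-3p near the lowest.

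The members differed in which other microRNAs followed them from library to library. Likeness was taken as Pearson's r of log2 CPM over the 12 libraries after the group means were removed, over points that share library and depth, and is given as a description. For miR-145a-5p, 2 libraries lay far below their group. BDL 4 had log2 CPM of 4.65, from 3 counts, against 6.11 to 7.67 in the other BDL libraries. Sham 6 had 4.28, from 12 counts, against 5.49 to 6.03 in the other sham libraries. How far the r values of miR-145a-5p rest on these 2 libraries was not tested. For miR-143-3p the highest values were miR-146b-5p (r = 0.83), miR-503-5p (0.82), miR-16-1-3p (0.80), miR-10a-5p (0.79) and miR-181b-5p (0.79). Their log2 fold changes were -1.62 ± 0.34, -1.47 ± 0.43, -1.40 ± 0.39, 0.11 ± 0.27 and -1.22 ± 0.35, with adjusted p of 0.00143, 0.011, 0.00878, 0.779 and 0.0108. miR-503-5p had -0.78 in suffix 24 (adjusted p = 0.192). For miR-145a-5p the highest were miR-664-3p (r = 0.91), miR-339-3p (0.89), miR-191-5p (0.89), miR-484 (0.89) and miR-574-3p (0.89). Of these miR-574-3p rose, with means of 274 CPM in sham and 1145 in BDL (2.07 ± 0.36, adjusted p = 3.61e-04). miR-191-5p had -0.65 ± 0.31 (adjusted p = 0.0974, or 0.04 without sham 6) and miR-484 0.42 ± 0.28 (adjusted p = 0.247).

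The other 2, miR-664-3p (1.21 ± 0.42, adjusted p = 0.0286) and miR-339-3p (1.03 ± 0.35, adjusted p = 0.0249), had values near that of miR-145a-5p. Both calls ended without BDL 1 or 2 or without sham 2, 3, 4, 5 or 6, that of miR-664-3p also without BDL 6 and that of miR-339-3p also without BDL 3. Over these leave-outs the values ran from 0.82 to 1.21 for miR-664-3p and from 0.61 to 1.05 for miR-339-3p. miR-664-3p was also not past the threshold in suffix 24 (0.81, adjusted p = 0.183), in suffix 26 (1.57, 0.0511), summed by first digit (0.96, 0.0657), with no count filter (1.00, 0.174) or without BDL 2 and BDL 4 (0.91, 0.0774). Nor was miR-339-3p in suffix 24 (0.85, adjusted p = 0.0602), in suffix 26 (1.17, 0.0982), with no count filter (0.86, 0.197) or without BDL 2 and BDL 4 (0.69, 0.0717).

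By the same measure the guide arms of the cluster were not alike. miR-145a-5p stood 250th of 340 names for likeness to miR-143-3p (r = -0.29), with miR-145a-3p 38th (r = 0.47) and miR-143-5p 63rd (r = 0.35). For miR-145a-5p, the other arm of its own hairpin stood 238th (r = -0.18). BDL 2, for example, had the lowest miR-143-3p and the highest miR-145a-5p of the 12 libraries.

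**Figure D4:**
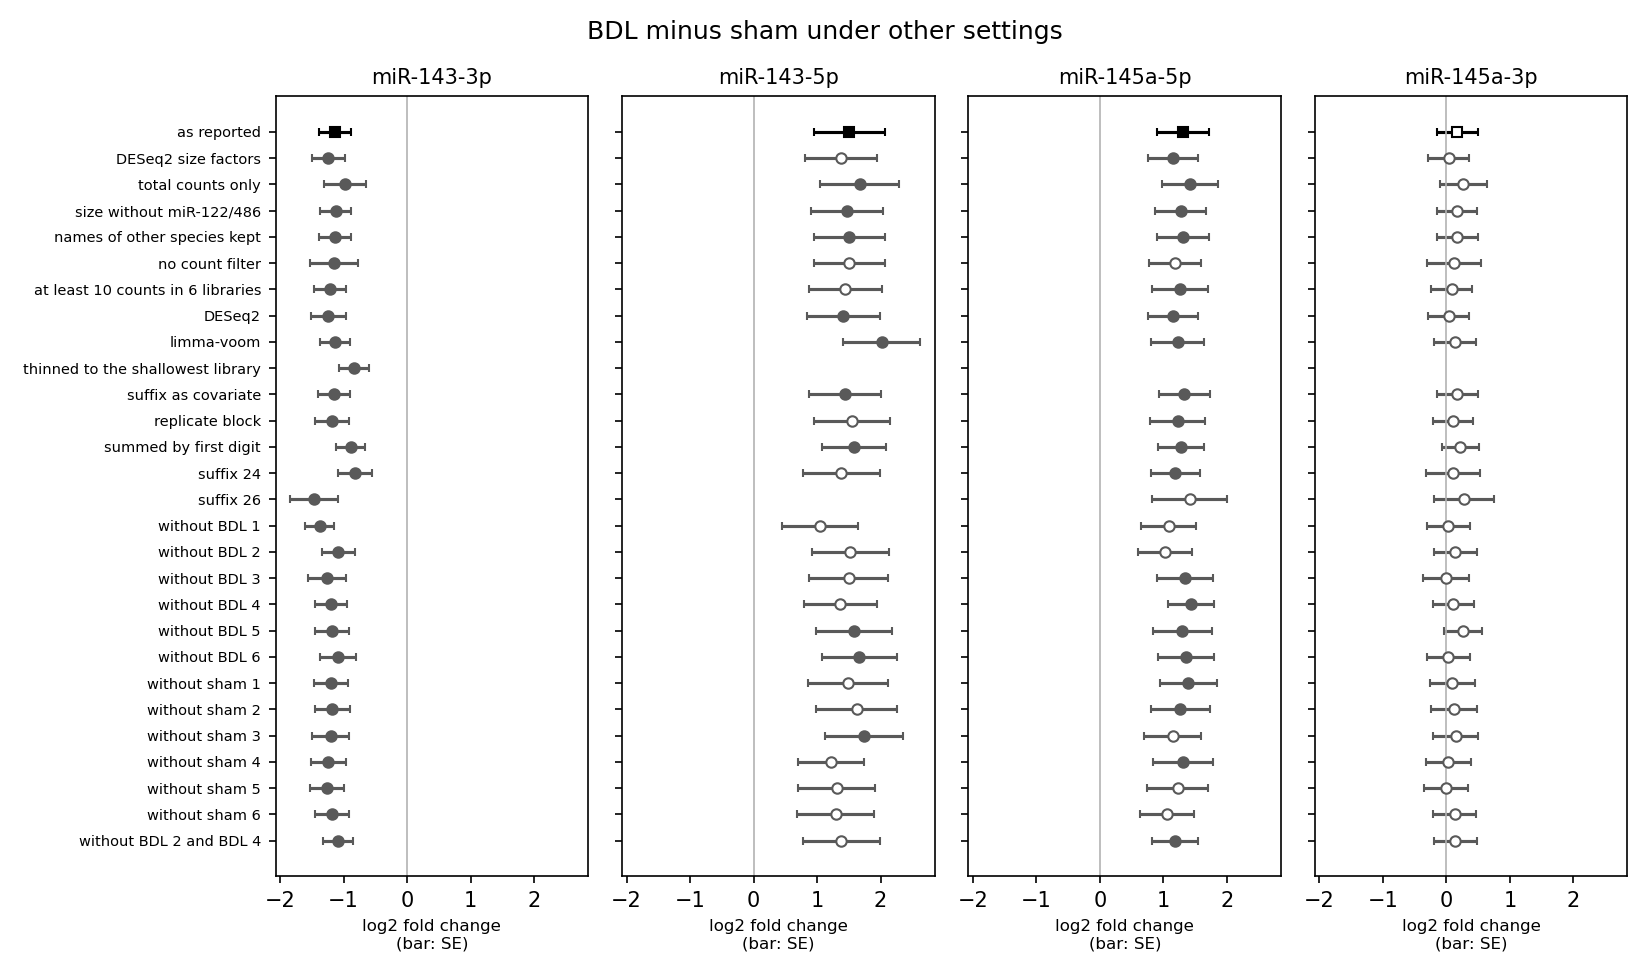
Log2 fold change (horizontal axis, BDL minus sham, with SE bars) of each member as reported (black square) and under each other setting or without each library (grey circles), filled where the adjusted p is under 0.05 and left blank where the name was not tested. miR-143-3p is filled and below 0 in every row, while miR-143-5p and miR-145a-5p stay above 0 and lose the fill in some rows.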

How the data were processed

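The authors deposited whole-number read counts per microRNA name, with no normalisation that the values show. Per the submitters' processing notes cutadapt and STAR were used; their versions, the build and the annotation were not given in the sources used here. Per the labels' protocols, small RNA libraries were made from 40 ng of vesicle RNA with 15 PCR cycles. The 67 names of other species were left out, and 1915 mouse names gave the library sizes. Counts were tested with edgeR 4.0.16 (R 4.3.3): its filter on low counts by group, TMM scaling, quasi-likelihood F test on group alone, and Benjamini-Hochberg adjustment over 341 names. The SE was taken from the log2 fold change and the F statistic. Log2 CPM values have a prior count of 2. Ratios and shares were compared by exact permutation. The edgeR fit and the permutation test were tested on simulated data. Other settings included DESeq2 1.42.0 and limma-voom (limma 3.58.1). The rule for the members uses no measured value, but the members and lists were chosen with earlier results of these data known. Named microRNAs are the members, the 5 names most like each guide arm, and names of the smooth muscle and fibroblast list that passed the test or were among its 3 most abundant. The comparison without BDL 2 and BDL 4, the sum with miR-145b and the other settings for names that are not members were chosen after the data were seen.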

Additional observations from a re-analysis of the deposited data

Results flagged for a closer look

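Of 56 groups of 6 values checked, 6 held a library far from the other 5, where chance gives about 1 in 20. In sham 6, log2 CPM of miR-145a-5p was 4.28, from 12 counts, against 5.49 to 6.03 in the other sham libraries. In the same library the log2 ratio of miR-143-3p to miR-145a-5p was 7.35, against 5.08 to 5.74. In BDL 4, the shallowest library, the log2 ratio of miR-143-3p was 5.04 to miR-199a-3p (3.49 to 4.00 in the other BDL libraries) and 8.21 to miR-223-3p (4.13 to 5.47). The log2 ratio of miR-145a-5p to miR-1a-3p was -4.35 there (-0.84 to 1.04 in the others). In BDL 2 the log2 ratio of miR-143-3p to miR-214-3p was 1.48, against 3.08 to 3.78 in the other BDL libraries.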

How the results depend on the processing

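The log2 fold change of miR-143-3p kept its direction and its side of the threshold under all 27 alternatives, with the lone libraries left out between -1.38 and -1.08. miR-145a-3p stayed not past the threshold in its 26, between -0.00 and 0.26 with a library left out. miR-143-5p stayed higher in its 25 but was not past the threshold with DESeq2 size factors (1.38), no count filter (1.51), at least 10 counts in 6 libraries (1.45), in suffix 24 (1.38) or without BDL 2 and BDL 4 (1.38), and ran from 1.05 to 1.74 with 1 library left out. miR-145a-5p stayed higher but was not past it with no count filter (1.18) or in suffix 26 (1.41), and ran from 1.02 to 1.44 with 1 library left out. Thinned to the shallowest library, only miR-143-3p could be tested, the calls were 40 higher and 30 lower of 133 names, and the log2 ratio of miR-143-3p to miR-143-5p differed by -1.25 (adjusted p = 0.104). Suffix 26 gave 54 higher names of 265. With 1 library left out the calls were 65 to 89 higher and 54 to 70 lower. Plain shares of counts of miR-143-3p, miR-143-5p and miR-145a-5p each had an adjusted p of 0.0433 by exact permutation. With 1 library left out they were not past the threshold in 7, 10 and 9 of 12 cases. The share of the members together differed by -0.139 to -0.099 percentage points with 1 library left out and by -0.0930 without BDL 2 and BDL 4 (adjusted p = 0.0833). The causes were not tested. Thinning leaves fewer counts and names, and suffix 26 fewer names and libraries.

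The labels number the samples 1 to 6 in both groups. The deviations of same-numbered libraries correlated at r from -0.089 to 0.31, over 0.1 in 2 of 6 pairs, short of the rule that every pair be over 0.1, so the numbers were taken as names. That 5 of 12 libraries correlated best with their own number is a hint from the data, not the design. With the replicate block, miR-143-5p had 1.55 (adjusted p = 0.0538), miR-143-3p -1.18 and miR-145a-5p 1.22, and 72 names were higher and 61 lower. Under the block miR-664-3p (1.18, adjusted p = 0.0504) and miR-339-3p (0.92, 0.0595) were also not past the threshold. DESeq2 size factors moved the median of all names by -0.13 (log2) and total counts only by 0.11, which changed the direction of no member. Depth limits the scarce arms most: BDL 4 had 3 counts of miR-143-5p and 3 of miR-145a-5p.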
